A study of Homo sapiens with 6 samples.

Results

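The genes described here encode the machinery of RNA polymerases I, II and III: the subunits of the enzymes and the main factors that work with polymerases I and III. They were chosen by name, as 46 gene symbols, and all 46 had a row among the 53719 rows of the count table. They fell into 14 genes that serve polymerase I only, 7 that serve polymerase II only, 18 that serve polymerase III only and 7 whose proteins are built into more than one enzyme. RNA was measured in H9 cells, an established line of human embryonic stem cells, grown in RSeT medium, which is sold for keeping a naive-like state, and labelled as naive. The knockdown group (3 libraries, titled Sense3 a, b and c) had received a gapmer, an antisense oligonucleotide that directs RNase H to its target, against alpha satellite RNA (ALR), which is transcribed from centromere repeats. The control group (3 libraries, a, b and c) had received a control gapmer, and both groups were taken at 48 h. The labels do not say whether the letters stand for separate cultures, so p-values measure the spread between these libraries, which may be technical. The table has no row for ALR, so the knockdown itself is not analysed here.

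Polymerase I makes the long precursor of ribosomal RNA inside the nucleolus, polymerase II makes messenger RNA, and polymerase III makes transfer RNA, 5S ribosomal RNA and other short RNAs. Each enzyme has its own large catalytic subunits, while several small subunits are common to all of them and another pair is common to polymerases I and III. Polymerase I needs UBTF, RRN3 and the selectivity factor SL1 (TAF1A to TAF1D with TBP) to start, and polymerase III needs TFIIIB and, at most of its genes, TFIIIC. The series concerns ALR and ribosomal RNA, and the comparison here asks whether messages of the polymerase machinery differed after the ALR gapmer.

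Total counts ran from 25087629 to 36576752 per library. Knockdown library a had counts in 29678 rows, against 25898 to 26788 in the others. Levels below are CPM, counts per 1000000 of the TMM-adjusted library size, and each ± beside a log2 fold change is its SE. Pluripotency markers were abundant. Their summed level over 7 genes was 5337 to 5914 CPM in the knockdown and 5182 to 5244 in the control libraries. These ranges did not overlap. Most of the sum came from LIN28A and DNMT3B, with means of 1757 and 2056 CPM in the knockdown and 1541 and 1907 in the control libraries. Of the 6 markers tested, 5 had a log2 fold change above 0, from 0.0037 (TDGF1) to 0.42 (POU5F1). POU5F1 had 120, 152 and 127 CPM in the knockdown and 114, 87.8 and 97.4 in the control libraries. Its groups did not overlap (edgeR unadjusted p = 0.00181, adjusted p = 0.0948). DPPA4 was lower, at 883 to 921 against 933 to 954 CPM. The summed level of 5 naive markers was 63.2 to 70.8 against 62.0 to 67.9 CPM, and KLF17, a defining one, lay between 0.0275 and 0.35 CPM in every library. For markers of other cells, the sums were 87.7 to 96.5 against 90.5 to 104 CPM for 6 fibroblast genes (THY1 at 0), 353 to 401 against 302 to 355 for 3 neural genes, nearly all of it NES, 13.3 to 14.8 against 10.6 to 12.9 for 5 mesendoderm genes with a row and 1.07 to 1.44 against 1.07 to 1.77 for 4 trophectoderm genes. The mesendoderm sums did not overlap either, and most of each sum was MIXL1, at 12.5 to 14.1 against 9.94 to 12.1 CPM. EOMES, with 4 to 16 counts per library, did not overlap as well. Single fibroblast genes went in different directions. PDGFRB was higher without overlap, with 49, 44 and 43 counts in the knockdown and 19, 33 and 15 in the control libraries (log2 fold change 1.15). COL1A2, most of the fibroblast sum, was at 60.7 to 72.9 against 71.0 to 81.0 CPM (log2 fold change -0.20), with overlapping groups. The part of all these markers in the results below was not tested. In bulk RNA, fewer cells of a type and less RNA per cell cannot be told apart.

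Of the 46 members, 43 had enough counts to be tested. POLR2H, a subunit of all 3 enzymes, RRN3, the factor that makes polymerase I competent to initiate, and MAF1, a repressor of polymerase III, were listed at 0 in all 6 libraries. Rows of other genes that every dividing cell uses were at 0 as well, among them RPL15, RPL32, RPS4X and EIF4A1 (chosen after their values were seen), and so was SOX2, a core pluripotency gene. These entries are therefore given as listed at 0 and not as absence of the RNA. RRN3 has closely similar pseudogene copies, of which RRN3P1 held 750, 902 and 783 counts in the knockdown and 852, 1114 and 1225 in the control libraries, so reads of the gene and its copies may be split.

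No member passed the threshold. In edgeR's quasi-likelihood test, 0 of the 43 members had an adjusted p under 0.05, where 0.786% of the 19721 genes tested did (0.137% higher and 0.649% lower in the knockdown libraries), and the smallest adjusted p of a member was 0.201 (TCOF1). An unadjusted p under 0.05 was reached by 6 members (14.0%), 3 higher and 3 lower in the knockdown libraries. The background was 14.3% of all genes tested, 6.68% higher and 7.57% lower, so the members' share was near it. DESeq2's Wald test also called 0 members, with 6 under an unadjusted p of 0.05. That test called 530 of the 19721 genes, and 12.2% of them had an unadjusted p under 0.05. The groups did not overlap in 10 members (23.3%), against 18.9% of all genes (9.55% higher and 9.37% lower). CD3EAP, TTF1, TCOF1, POLR2A, GTF3C1 and POLR2E were higher and POLR3A, POLR3F, POLR3GL and POLR1D lower. The count of 6 moved when single libraries were left out. It was 3 without knockdown library b, 10 without knockdown library c and 2 without control library b. The share of all genes tested with an unadjusted p under 0.05 moved in the same directions, to 11%, 19.3% and 9.72%.

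The intervals around these differences were narrow for most members. For 40 of the 43 members (93.0%) the 95% interval of the fold change lay wholly within 1.5-fold in either direction, which held for 63.2% of all genes tested. The exceptions were CD3EAP, POLR2I and POLR3GL, with total counts of 394, 1131 and 213 over all libraries. ZNRD1, with 896, was not among them. The median log2 fold change over the 43 members was 0.070, beside 0.020 over all genes tested, and 29 members (67.4%) lay above 0, beside 54.4% of all genes.

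**Figure D1:**
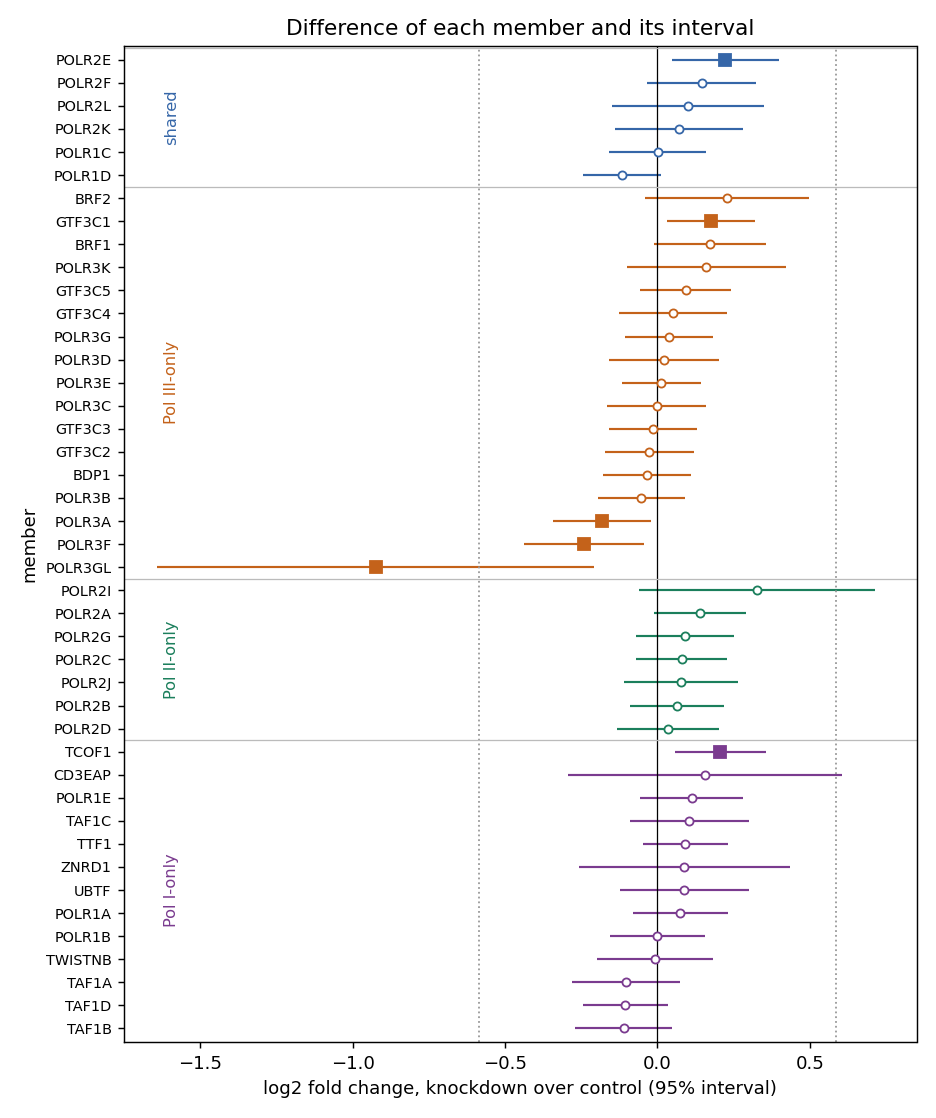
Log2 fold change of each of the 43 tested members, knockdown over control, with its 95% interval, grouped by the enzyme served; filled squares have an unadjusted p under 0.05 and dotted lines mark 1.5-fold. 40 of 43 intervals lie between the dotted lines, and POLR3GL has the widest.

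Levels between genes were compared as CPM per kilobase of annotated exon, which depends on which exons the cells use. In the control libraries the members spanned from 0.556 ± 0.0290 (SD, n = 3) for CD3EAP to 33.1 ± 2.30 for POLR2B on that scale, with a median of 12.9, beside 4.36 over all tested genes with a length. The catalytic subunits were ordered alike in both groups. POLR2A stood at 30.1 ± 0.246 CPM per kb, POLR1A at 15.1 ± 0.839 and POLR3A at 13.2 ± 0.450, and the second largest subunits followed the same order, with POLR2B at 33.1 ± 2.30, POLR1B at 15.2 ± 0.799 and POLR3B at 12.2 ± 0.467. The lowest rows were CD3EAP, POLR3GL at 0.824 ± 0.136, ZNRD1 at 1.30 ± 0.223 and UBTF at 1.98 ± 0.154. CD3EAP, ZNRD1 and UBTF overlap exons of genes on the opposite strand, and POLR3GL overlaps another annotated transcript on its own strand, so their counts are uncertain. Such overlaps were not particular to the low rows. POLR2B, the highest, overlaps exons of IGFBP7 and NOA1 on the opposite strand.

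**Figure D2:**
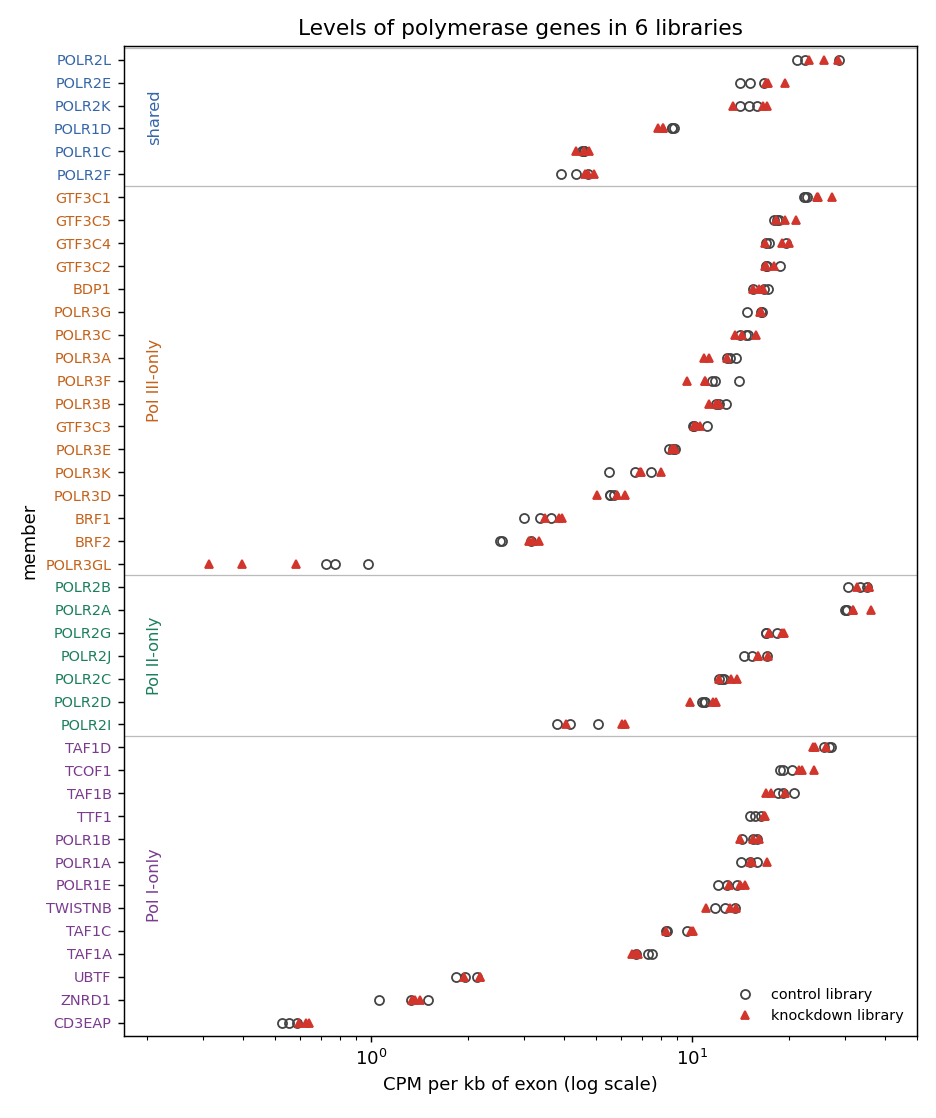
Level of each tested member in CPM per kb of exon (log scale) in the 3 control libraries (open circles) and 3 knockdown libraries (triangles), ordered within each class. The members span from CD3EAP, at 0.556 in the controls, to POLR2B, at 33.1, and the points of POLR3GL are the most spread.

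Among genes of polymerase I, TCOF1 had the smallest p. It encodes treacle, a nucleolar protein that helps polymerase I transcription and ribosome production, and lies on chromosome 5, 150357629 to 150400308 (GRCh38). TCOF1 had 251, 273 and 247 CPM in knockdown libraries a to c, against 234, 215 and 219 CPM in controls a to c. Its 3 knockdown values were higher than any control value, and library b was the highest of them. The difference was log2 fold change 0.21 ± 0.068, unadjusted p = 0.0105, edgeR adjusted p = 0.201, so that the fitted knockdown level was 1.15 times the control level. No other annotated exon overlaps it.

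Of the 6 subunits found in polymerase I alone, 0 had an unadjusted p under 0.05, beside 14.3% of all genes tested. POLR1A, the largest catalytic subunit (chromosome 2, 86020216 to 86106155), had 205, 231 and 208 CPM in the knockdown libraries and 192, 204 and 215 in the controls (log2 fold change 0.075 ± 0.072, unadjusted p = 0.314, edgeR adjusted p = 0.681). POLR1B, its partner at the active site (chromosome 2, 112541915 to 112577150), had 97.8, 102 and 89.0 CPM in the knockdown libraries and 90.8, 97.8 and 101 in the controls (log2 fold change -0.00037 ± 0.072, unadjusted p = 0.996, edgeR adjusted p = 0.999). The groups overlapped in both. The smaller subunits POLR1E (0.11 on the log2 scale), TWISTNB (-0.0074), now named POLR1F, and ZNRD1 (0.088), now POLR1H, overlapped as well. CD3EAP, now POLR1G, had 2.19, 2.34 and 2.29 CPM in the knockdown libraries and 1.93, 2.03 and 2.15 in the controls. Its groups did not overlap, but with 55 to 78 counts per library the interval ran from -0.29 to 0.61 on the log2 scale.

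UBTF, which binds along the ribosomal DNA repeats and recruits SL1, had 13.6, 15.3 and 15.2 CPM in the knockdown libraries and 15.0, 12.9 and 13.7 in the controls (log2 fold change 0.088 ± 0.097, unadjusted p = 0.384, edgeR adjusted p = 0.732), with overlapping groups. Of the 4 SL1 genes, TAF1A (-0.10), TAF1B (-0.11) and TAF1D (-0.11) lay below 0 and TAF1C (0.10) above, with unadjusted p-values between 0.127 and 0.264 and overlapping groups in all 4. TAF1D, the highest polymerase I row per kilobase, had 203, 201 and 219 CPM in the knockdown libraries and 216, 228 and 225 in the controls. TAF1D carries snoRNA genes within its annotated exons, so some of its reads could belong to them. Over 17 alternative settings, the log2 fold change of TAF1D ran from -0.17 to -0.060. The first was without knockdown library c (edgeR unadjusted p = 0.00818, adjusted p = 0.0938), the only 1 of the 17 with an unadjusted p under 0.05. In that setting 19.3% of all genes tested were under 0.05. The other was with the trend on GC content removed (unadjusted p = 0.479). TTF1, which stops polymerase I at the end of the repeat, was at 53.8, 54.3 and 53.9 CPM in the knockdown libraries and 50.6, 52.7 and 48.8 in the controls. Its groups did not overlap, although the difference was only 0.092 on the log2 scale (unadjusted p = 0.175).

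All 7 genes of polymerase II alone lay above 0, and none had an unadjusted p under 0.05. Of all genes tested, 54.4% lay above 0 and 14.3% had an unadjusted p under 0.05. Over 17 alternative settings, POLR2D kept this sign in 14 and POLR2J in 16. POLR2A, the catalytic subunit whose tail repeats are phosphorylated during transcription (chromosome 17, 7484366 to 7514616), had 265, 301 and 264 CPM in the knockdown libraries and 249, 253 and 252 in the controls (log2 fold change 0.14 ± 0.069, unadjusted p = 0.0683, edgeR adjusted p = 0.391). Its groups did not overlap, and the controls lay close together while knockdown library b stood apart from a and c. Without knockdown library b the log2 fold change of POLR2A was 0.067 (unadjusted p = 0.321). POLR2B, the second largest subunit (chromosome 4, 56977722 to 57031168), had 209.5, 209.6 and 193 CPM in the knockdown libraries and 181, 208 and 197 in the controls (log2 fold change 0.064 ± 0.071, unadjusted p = 0.382, edgeR adjusted p = 0.732), and its groups overlapped. POLR2I, a small subunit that serves accuracy of transcription, had the largest difference in the class. It stood at 7.83, 7.67 and 5.14 CPM in the knockdown libraries and 6.47, 5.28 and 4.82 in the controls (log2 fold change 0.33 ± 0.18, unadjusted p = 0.0921, edgeR adjusted p = 0.437), with knockdown library c among the controls. The remaining POLR2C (0.080), POLR2D (0.036), POLR2G (0.090) and POLR2J (0.077) had overlapping groups. POLR2J has near-identical copies on the same chromosome, and of these POLR2J3 was listed at 0, so the split of reads between them is uncertain.

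Of the 17 polymerase III genes tested, 4 (23.5%) had an unadjusted p under 0.05, with 3 lower and 1 higher, beside 14.3% of all genes tested (7.57% lower and 6.68% higher). The difference between these shares was not tested. POLR3A, the largest catalytic subunit, whose exons overlap no other annotated gene (chromosome 10, 77969251 to 78029545), had 101, 115 and 97.0 CPM in knockdown libraries a to c, against 117, 123 and 115 CPM in controls a to c. Every knockdown library lay below every control, though knockdown library b and control library c were nearly level. The difference was log2 fold change -0.18 ± 0.074, unadjusted p = 0.0291, edgeR adjusted p = 0.288. POLR3B, the second largest subunit, had 59.1, 55.0 and 57.7 CPM in the knockdown libraries and 57.5, 58.7 and 61.9 in the controls (log2 fold change -0.053 ± 0.065, unadjusted p = 0.429, edgeR adjusted p = 0.760), and its groups overlapped. POLR3F, which belongs to the subcomplex that opens the promoter (chromosome 20, 18467127 to 18484643), had 32.1, 28.1 and 32.0 CPM in the knockdown libraries and 33.7, 40.9 and 34.4 in the controls. The groups were separate by a narrow margin, with control library b well above the rest (log2 fold change -0.24 ± 0.090, unadjusted p = 0.0204, edgeR adjusted p = 0.258). An exon of DZANK1 on the opposite strand overlaps this gene. The other 2 subunits of that subcomplex were POLR3C (-0.0028) and POLR3G (0.038). POLR3D (0.021), POLR3E (0.012) and POLR3K (0.16) had overlapping groups.

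POLR3G and POLR3GL encode alternative versions of one subunit, and POLR3G is known as the form of pluripotent cells. POLR3G (chromosome 5, 90471748 to 90514553) had 65.4, 65.9 and 65.7 CPM in the knockdown libraries and 59.4, 66.5 and 66.0 in the controls (log2 fold change 0.038 ± 0.067, unadjusted p = 0.583, edgeR adjusted p = 0.845). The 3 knockdown values lay between the lowest and the highest control. POLR3GL (chromosome 1, 145964702 to 145978848) had 16, 35 and 18 counts in the knockdown and 37, 43 and 64 in the control libraries, or 0.564, 1.05 and 0.712 against 1.30, 1.38 and 1.76 CPM. All knockdown values lay below all control values, and the difference was log2 fold change -0.93 ± 0.33, unadjusted p = 0.0157, edgeR adjusted p = 0.236. Per kilobase, POLR3G was 51.9, 28.1 and 41.3 times POLR3GL in knockdown libraries a to c and 20.4, 21.5 and 16.8 times in controls a to c. This ratio does not depend on library scaling. Its log2 value was 1.01 higher in the knockdown libraries (5.29 ± 0.447 against 4.28 ± 0.190, SD, n = 3; exact permutation p = 0.10, two-sided, the smallest that 3 libraries against 3 can give). With so few POLR3GL counts and an overlapping transcript, the size of this difference is poorly determined.

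Of the 5 TFIIIC genes, which encode the complex that recognises the promoter inside transfer RNA genes, GTF3C1 alone had an unadjusted p under 0.05. GTF3C1, the largest subunit (chromosome 16, 27459555 to 27549913), had 283, 316 and 285 CPM in knockdown libraries a to c, against 260.0, 264 and 259 CPM in controls a to c. The controls were tightly grouped and all knockdown libraries lay above them, with library b the highest. The difference was log2 fold change 0.17 ± 0.066, unadjusted p = 0.0217, edgeR adjusted p = 0.263. GTF3C2 (-0.026), GTF3C3 (-0.014), GTF3C4 (0.052) and GTF3C5 (0.093) had overlapping groups. In the TFIIIB group, which positions polymerase III at the start site, BRF1 (0.17; unadjusted p = 0.0620) and BRF2 (0.23; unadjusted p = 0.0897) lay above 0 and BDP1 (-0.035; unadjusted p = 0.610) near it, with overlapping groups in each. Without control library b, BRF1 was at 0.095 (unadjusted p = 0.306).

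Among subunits built into several enzymes, POLR2E, POLR2F, POLR2K and POLR2L are common to all 3 enzymes and lay above 0. POLR2E (chromosome 19, 1086579 to 1095380) had 82.5, 94.4 and 83.6 CPM in knockdown libraries a to c, against 81.4, 73.4 and 68.5 CPM in controls a to c. The groups did not overlap, but control library a was close to knockdown libraries a and c (log2 fold change 0.22 ± 0.080, unadjusted p = 0.0168, edgeR adjusted p = 0.240). An exon of ARHGAP45 overlaps it on the opposite strand. POLR2F had 33.5, 34.8 and 32.8 CPM in the knockdown libraries and 33.4, 27.4 and 30.7 in the controls (log2 fold change 0.14 ± 0.082, unadjusted p = 0.102, edgeR adjusted p = 0.453), and POLR2L had 26.4, 32.5 and 29.5 CPM in the knockdown libraries and 32.8, 24.2 and 25.7 in the controls (log2 fold change 0.10 ± 0.11, unadjusted p = 0.402, edgeR adjusted p = 0.743). Both overlapped, as did POLR2K (0.070). POLR1C and POLR1D belong to polymerases I and III. POLR1C lay near 0 (0.00058; 95% interval -0.16 to 0.16 on the log2 scale). POLR1D (chromosome 13, 27620742 to 27744237) had 90.9, 91.1 and 87.7 CPM in the knockdown libraries and 98.4, 97.3 and 96.7 in the controls, with every knockdown library below every control (log2 fold change -0.12 ± 0.059, unadjusted p = 0.0727, edgeR adjusted p = 0.400).

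**Figure D3:**
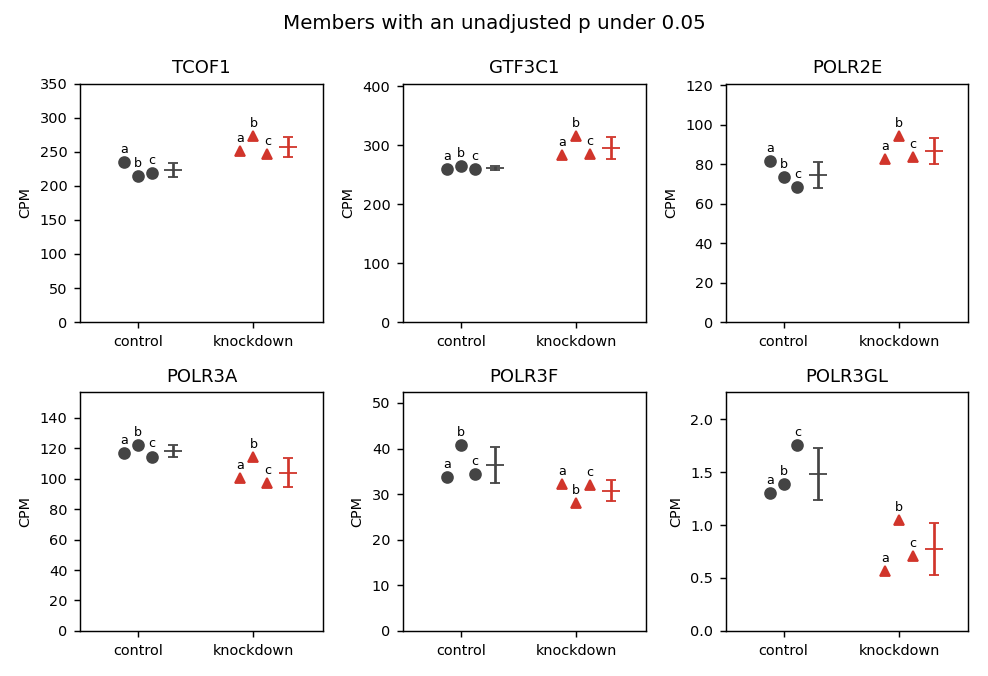
CPM in each library (letters a to c) of the 6 members with an unadjusted p under 0.05, with the mean and SD of each group beside the points; n = 3 per group and each axis starts at 0. The groups are separate in all 6, by small margins in POLR2E, POLR3A and POLR3F.

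These 6 members kept their direction in every alternative setting in which they were tested, and none passed an adjusted p of 0.05 in any. The smallest adjusted p over the settings belonged to TCOF1, whose adjusted p ranged from 0.0586 to 0.605. Leaving out knockdown library b moved GTF3C1 from 0.17 to 0.12, and leaving out control library b moved POLR3F from -0.24 to -0.15 on the log2 scale, each by more than 1.5 times.

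The catalytic subunits were also set against each other within each library, a comparison chosen after their values were seen and given without a test. Per kilobase, POLR2A was 2.81, 2.80 and 2.91 times POLR3A in knockdown libraries a to c and 2.27, 2.21 and 2.34 times in controls a to c. POLR1A was 1.35, 1.33 and 1.41 times POLR3A against 1.08, 1.10 and 1.24 times. In both ratios the groups did not overlap, and both share the POLR3A values. POLR1A was 0.480, 0.474 and 0.486 of POLR2A in the knockdown libraries and 0.477, 0.498 and 0.528 in the controls, which overlapped. POLR2B was 2.92, 3.14 and 2.76 times POLR3B against 2.59, 2.91 and 2.62 times. These groups overlapped.

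By class, the median log2 fold change was 0.088 over 13 polymerase I genes, 0.080 over 7 of polymerase II, 0.012 over 17 of polymerase III and 0.085 over 6 shared subunits. Members lay above 0 in 8 of 13, 7 of 7, 9 of 17 and 5 of 6, beside 54.4% of all genes tested. The SD of the library medians within the groups was 0.0493, 0.0586, 0.0404 and 0.0674 in the same order. Leaving out knockdown library b lowered the medians to 0.054, 0.053, -0.0068 and 0.018. As the median difference from the control mean, polymerase I genes stood at 0.022, 0.14 and 0.030 (log2) in knockdown libraries a to c and at -0.0067, 0.022 and -0.012 in the controls. Polymerase II genes stood at 0.10, 0.14 and -0.012 against -0.012, 0.011 and -0.017. Polymerase III genes stood at 0.035, 0.036 and -0.040 against -0.043, 0.017 and 0.025, and shared subunits at 0.043, 0.17 and 0.058 against 0.073, -0.0094 and -0.052. Knockdown library b was the highest in each class, and the groups overlapped in each. Over all genes tested the knockdown medians were 0.015, 0.017 and 0.0054.

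**Figure D4:**
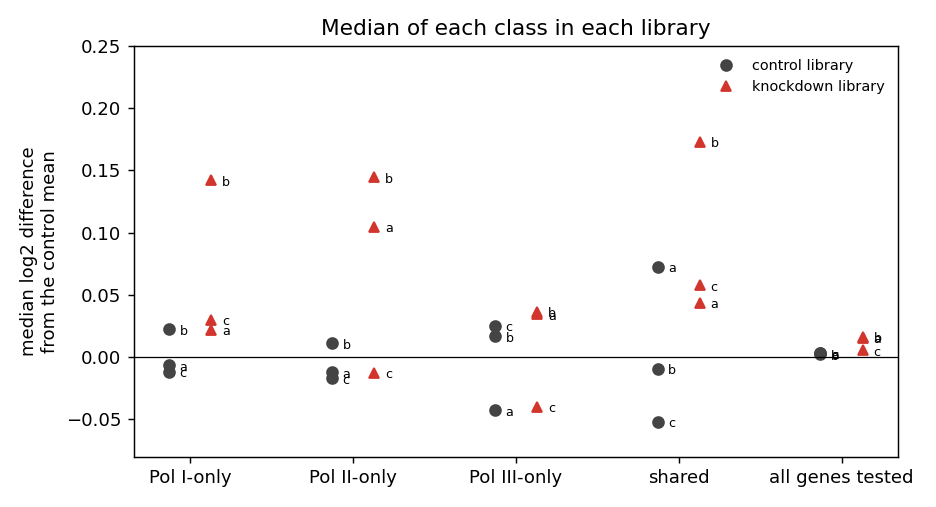
Median log2 difference from the control mean over the tested members of each class, and over all genes tested, in each control (circles) and knockdown (triangles) library, with the library letters. Knockdown library b is the highest point in each of the 4 classes, and the groups overlap in each.

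The members' differences moved with base composition and, less closely, with gene span. Across the 43 members, the log2 fold change and the GC content of the longest annotated transcript had a Spearman rho of 0.653. It was 0.301 over the 15985 tested genes with a value. Pearson r with log2 GC content was 0.355 over the members, beside 0.201. For gene span, rho was -0.391 over the members, beside -0.171. These points share the same 6 libraries and are given as a description. The part of each property was not tested. The 3 members with an unadjusted p under 0.05 on the higher side had GC contents of 55.8% (TCOF1), 56.7% (GTF3C1) and 59.4% (POLR2E). The lower ones had 49.4% (POLR3A), 41.7% (POLR3F) and 48.1% (POLR3GL). When each library's trend on GC was removed, a setting chosen after seeing the data, TCOF1 was at 0.12 (unadjusted p = 0.162), GTF3C1 at 0.077 (unadjusted p = 0.360) and POLR2E at 0.11 (unadjusted p = 0.185). POLR3A (-0.20; unadjusted p = 0.0272), POLR3F (-0.21; unadjusted p = 0.0259) and POLR3GL (-0.93; unadjusted p = 0.0136) moved by less than their SE.

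**Figure D5:**
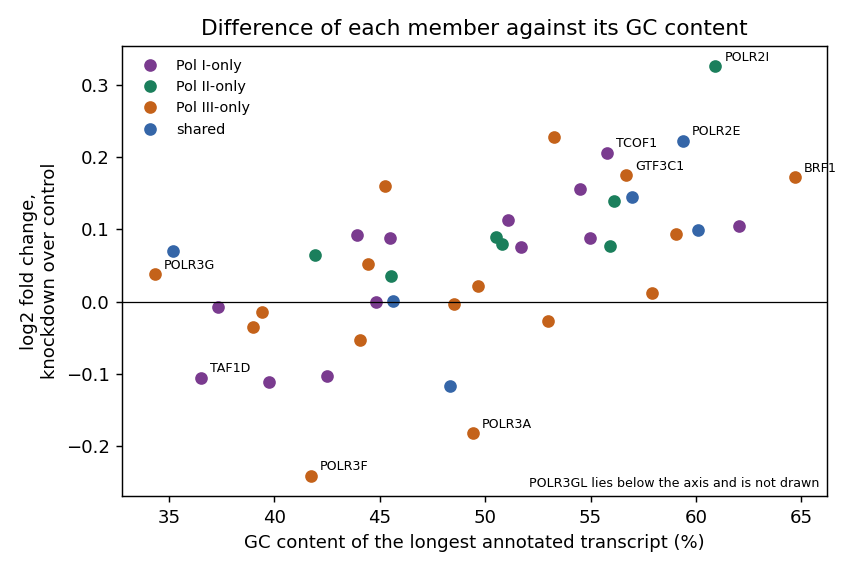
Log2 fold change, knockdown over control, of each tested member against the GC content (%) of its longest annotated transcript, coloured by class; POLR3GL, at -0.93, is not drawn. TCOF1, GTF3C1 and POLR2E lie to the right, at 55.8% GC or more, and POLR3F to the left.

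Other genes of these pathways gave no call either. Each list below held 0 genes with an adjusted p under 0.05, with the adjustment made across the whole table. Of all genes tested 0.786% were called, and at that share a list this short would often hold none. Beside the counts that follow, 54.4% of all genes tested lay above 0 and 14.3% had an unadjusted p under 0.05. Of 11 further polymerase I factors, 8 lay above 0 (median log2 fold change 0.076) and 2 had an unadjusted p under 0.05. These were BAZ2A, a subunit of the complex that silences ribosomal DNA repeats, at 224, 255 and 201 CPM in the knockdown and 183, 195 and 181 in the control libraries (log2 fold change 0.28 ± 0.084, SE; edgeR adjusted p = 0.153), and MYBBP1A, a nucleolar protein, at 143, 162 and 150.3 against 139.9, 131 and 132 CPM (edgeR adjusted p = 0.268). Of 39 general factors of polymerase II, 22 lay above 0 (median 0.0085), with an unadjusted p under 0.05 in 4 higher and 2 lower genes. The smallest p-values belonged to MNAT1 (-0.32) and GTF2F1 (0.21). Of 13 other polymerase III factors, 5 lay above 0 (median -0.025) and 0 had an unadjusted p under 0.05. Of 11 factors that assemble the polymerases, 8 lay above 0 (median 0.051), and RPAP1 (0.24; edgeR adjusted p = 0.177), RUVBL1 (0.17) and PIH1D1 (0.22) had an unadjusted p under 0.05. The copies POLR2J2 and POLR2J4 and the mitochondrial polymerase genes POLRMT, TFAM and TFB2M had none.

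Products of polymerase III were looked up in the same table. Of 15 named RNAs, 9 had any counts, and RN7SK, RN7SL2 and RPPH1 held nearly all of them. RN7SK, which holds the elongation factor of polymerase II in check, had 1466, 1560.5 and 1885 CPM in the knockdown and 2117, 1918 and 1300.4 in the control libraries (log2 fold change -0.12 ± 0.15, SE; edgeR adjusted p = 0.766). RPPH1, the RNA of ribonuclease P, had 335, 400.4 and 446 against 433, 329 and 322 CPM (0.12 ± 0.12; edgeR adjusted p = 0.692). RN7SL2, a copy of the signal recognition particle RNA, had 2073, 2593 and 2430.3 against 2436, 1488 and 1424 CPM (0.41 ± 0.17; unadjusted p = 0.0315; edgeR adjusted p = 0.299). The groups overlapped in all 3, and control library a was the highest control in each. RN7SL1, nearly identical to RN7SL2, was listed at 0, so counts for this pair are uncertain.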

How the data were processed

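The authors deposited whole-number read counts per gene symbol for 6 libraries, with column totals that differ, so no scaling was apparent. Per the submitters' processing notes, the genome build was hg38 and the tools were Trimmomatic 0.39, STAR 2.7.8a, featureCounts and Subread 2.14.2. The annotation, strand setting and handling of reads in several places or genes are not given in the sources used here, which bears on rows at 0 and on overlapping genes.

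Counts were tested with edgeR 4.0.16 in R 4.3.3 (filterByExpr defaults, TMM, quasi-likelihood test with the group as the only term, two-sided, Benjamini-Hochberg over 19721 genes, threshold 0.05). The common biological coefficient of variation was 0.103. Intervals are 95% from the model's SE. Gene models came from GENCODE 29 (GRCh38), matched by symbol, and all 46 members matched. The ratio test used SciPy 1.17.1. The procedure was tested on simulated data. The alternatives were other scalings, DESeq2 1.42.0, limma-voom (limma 3.58.1), other filters, a replicate block, removal of trends on length and GC, and each library left out. Members, gene lists and classes were chosen with earlier results of these data known. Values per library are given for members with an unadjusted p under 0.05, the catalytic subunits, POLR3G, POLR3GL, UBTF, RRN3 and MAF1, and in each class the highest and lowest per kilobase and those with the 2 smallest p-values.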

Additional observations from a re-analysis of the deposited data

How the results depend on the processing

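The number of members called was 0 in all 17 alternatives. Over the same settings, the genes called ran from 26 of 20413 tested (without control library a) to 1309 of 20456 (without knockdown library c). The number of genes called over the whole table moved from 155 to 530 with DESeq2's Wald test, 1064 with no low-count filter, 283, 236 and 238 after removing the trends on exon length, gene span and GC, and to between 26 and 1309 when a library was left out. With the replicate block it was 393. Whether equal letters mark paired libraries is not given by the labels. Correlations of deviations from the group mean between libraries of equal letter (1.23e-05, 0.116 and -0.0251 for a to c) are too few to decide it. In the fit with the replicate block, 7 members had an unadjusted p under 0.05, beside 14.7% of all genes tested. That count of members, 6 with all libraries, was 3 without the span trend, 3 without the GC trend and between 2 and 10 when a library was left out. Over all genes tested, the share was 14.3% with all libraries, 14.2% without the span trend and 12.4% without the GC trend. It lay between 8.51% and 19.3% when a library was left out. The median of the polymerase I genes (0.088) was 0.038 without the span trend, 0.030 without the GC trend and between 0.036 (without control library b) and 0.10 when a library was left out (0.054 without knockdown b, 0.058 without knockdown c). Without the span trend the medians were 0.020 for polymerase II, -0.036 for polymerase III and 0.015 for shared subunits. Leaving out a library gave medians from 0.053 (without knockdown b) to 0.11 (without knockdown c) for polymerase II, from -0.0068 (without knockdown b) to 0.026 (without control c) for polymerase III, and from 0.018 (without knockdown b) to 0.15 (without control a) for shared subunits, which were at 0.038 without control b and 0.038 without control c. By class, the median stayed above 0 in 17 of 17 alternatives for polymerase I, polymerase II and shared subunits and in 13 of 17 for polymerase III. The median of all genes tested ran from -0.011 (without the span trend) to 0.067 (no low-count filter) over these settings. Scaling by library size alone moved the median of all genes from 0.020 to 0.047, and the calls were then 56 higher and 102 lower, beside 27 and 128 with TMM and 45 and 112 with the upper quartile. The log2 ratio of POLR3G to POLR3GL stayed between 0.81 and 1.25 when a library was left out. Over single members, 716 of 730 values lay within 1 SE of the value with all libraries, and the cause of the other differences was not tested. POLR3GL could not be tested at a mean count of at least 50. The trends on span and GC, and the count at an unadjusted p, were added after seeing the data.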
